A study of Caenorhabditis elegans with 2 samples.

Results

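The genes described here are 10 genes of metal and iron handling in *C. elegans*, chosen by symbol from the 18510 genes of the deposited expression table. They encode the metallothioneins (*mtl-1* and *mtl-2*), the ferritins (*ftn-1* and *ftn-2*), divalent metal transporters (*smf-1*, *smf-2* and *smf-3*), zinc transporters (*cdf-2* and *ttm-1*) and a heme transporter (*hrg-1*). All 10 are in the table. RNA was measured in 2 libraries of whole wild-type N2 nematodes grown in liquid culture (S medium), fed *E. coli* NA22 and collected at Day 10 of adulthood. The Control library came from untreated nematodes, and the AbaPep#07 library from nematodes given 2 mM of AbaPep#07, an abalone octapeptide, from L4, the last larval stage. The comparison asks which genes respond to the peptide in aged nematodes. As each condition has 1 library, replicate error could not be measured for any difference below.

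Iron, zinc, copper and manganese are needed by many enzymes but are toxic in excess, and nematodes balance uptake, storage and export mainly in the intestine. Metallothioneins are small proteins rich in cysteine that bind zinc, copper and cadmium, and ferritins store iron in a protein shell. Transporters of the NRAMP family (*smf* genes) carry divalent metals into the cell, cation diffusion facilitators (CDF) move zinc out of the cytosol, and heme, which *C. elegans* cannot make, is taken from food. In *C. elegans* the ferritin genes are known to be raised and *smf-3* lowered by iron surplus, with the reverse under iron shortage, and the metallothionein genes to be induced by cadmium, zinc and heat.

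Of the 10 genes, *mtl-2* alone met the thresholds of the study, and it fell 2.37-fold in the AbaPep#07 library by FPKM. These thresholds are a false discovery rate of 0.05 or less in the PossionDis test and a ratio of FPKM (reads scaled by transcript length and library total) of at least 2 or at most 0.5. The test compares the reads of the 2 libraries and not the conditions, and it allows for no variation between cultures. In the exact test of edgeR, where such variation has to be assumed, *mtl-2* was kept with a coefficient of variation of 0.1 (FDR of 0.000596) and lost with 0.2 (0.706) and 0.4 (1). The same thresholds were met by 3.53% of all genes, and on the lower side by 1.43%. The other differences were modest. Both ferritin genes, *smf-1* and *ttm-1* were 1.25 to 1.29 times higher with AbaPep#07, whereas *mtl-1* and *smf-3* were 1.42-fold and 1.49-fold lower by FPKM. For *cdf-2*, *hrg-1* and the nearly silent *smf-2*, counting error covered the difference. The median log2 ratio over the 10 genes was 0.03, against -0.02 over all genes, with 5 of the genes higher and 5 lower.

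The libraries held 19409907 estimated reads (Control) and 19241145 (AbaPep#07). Each 95% interval of a read ratio given below is the exact interval from the binomial split of a gene's reads. It covers counting error only, as reads copied from the same molecule by PCR count as separate reads. An interval that leaves out 1 was common at this depth, as it was found for 41.2% of the 14119 genes whose reads in the 2 libraries came to 20 or more, 20.6% higher and 20.6% lower. It was found for 37.1% of the genes with 100 to 1000 reads, 54.3% of those with 1000 to 10000 and 84.9% of those with more. Each interval was taken gene by gene, with no adjustment for the number of genes. An interval that leaves out 1 therefore does not by itself show that the 2 libraries differed. It also leaves the variation between cultures unmeasured. Of the 14119 genes, 2905 higher and 2905 lower had such an interval, while 2366 and 2263 passed the FDR threshold of the PossionDis test. Among the 9 genes with at least 20 reads here, such an interval was found for 7, of which 4 were higher and 3 lower with AbaPep#07. All 7 also passed that FDR threshold.

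Since the libraries are of whole nematodes, a lower level can come from fewer cells of a type or from less RNA per cell, which cannot be told apart. Of 8 intestine markers, 4 were higher and 1 lower by their counting intervals, and 1 of them (*act-5*) met the thresholds. Their summed FPKM went from 2956 to 3106, but most of both sums came from *asp-1* (2457 and 2460), whose interval holds 1. The level of *act-5* went from 130.5 to 282.8 FPKM, and that of *vha-6*, the lower marker, from 141.4 to 115.8. All 7 oocyte and germline markers were lower, with sums of 1083 and 912.7 FPKM. Of 5 muscle markers, 1 was higher and 3 were lower, with sums of 831.5 and 779.1 FPKM, and of 5 neuron markers 2 were lower, with sums of 433.4 and 434.3. In the PossionDis test the higher muscle marker, *mup-2*, had an FDR of 0.132. The lower neuron marker *ric-4* had an FDR of 0.0837. Epidermis markers (5 genes, 2 higher and 1 lower) summed to 223.4 and 196.7 FPKM, and 1 of the higher ones, *bli-1*, met the thresholds on 1 and 9 reads. Moulting markers (5 genes, 1 higher and 1 lower) summed to 36.1 and 35.8 FPKM. No interval of the 5 sperm or the 5 embryo markers left out 1, and these lists summed to at most 23.0 FPKM. No marker had 0 reads in either library. Whether these cultures held FUDR, which stops reproduction, and how progeny were removed are not given in the sources used here. The part of these shifts in the results was not tested.

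In both libraries the levels followed the same order, in FPKM from high to low *mtl-1*, *ftn-2*, *ftn-1*, *mtl-2*, *ttm-1*, *smf-3*, *cdf-2*, *smf-1*, *hrg-1* and *smf-2*. This order holds per length. By reads *mtl-2*, a short gene, stood below *ttm-1* and *smf-3*, with 364 reads in Control against 694 and 691. The range was wide. In Control it ran from 4495 FPKM for *mtl-1*, the gene of rank 37 among all genes, to 0.07 FPKM for *smf-2*, of rank 17356. Most neighbours in the order were separated by more than their counting intervals. The exceptions were *smf-1* and *hrg-1* in Control, and *smf-3*, *cdf-2* and *smf-1*, each against the next, in the AbaPep#07 library. In that library *smf-3* stood at 14.6 FPKM, *cdf-2* at 13.3 and *smf-1* at 12.2. In Control they stood at 21.7, 13.8 and 9.70 FPKM, with intervals that did not overlap.

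**Figure D1:**
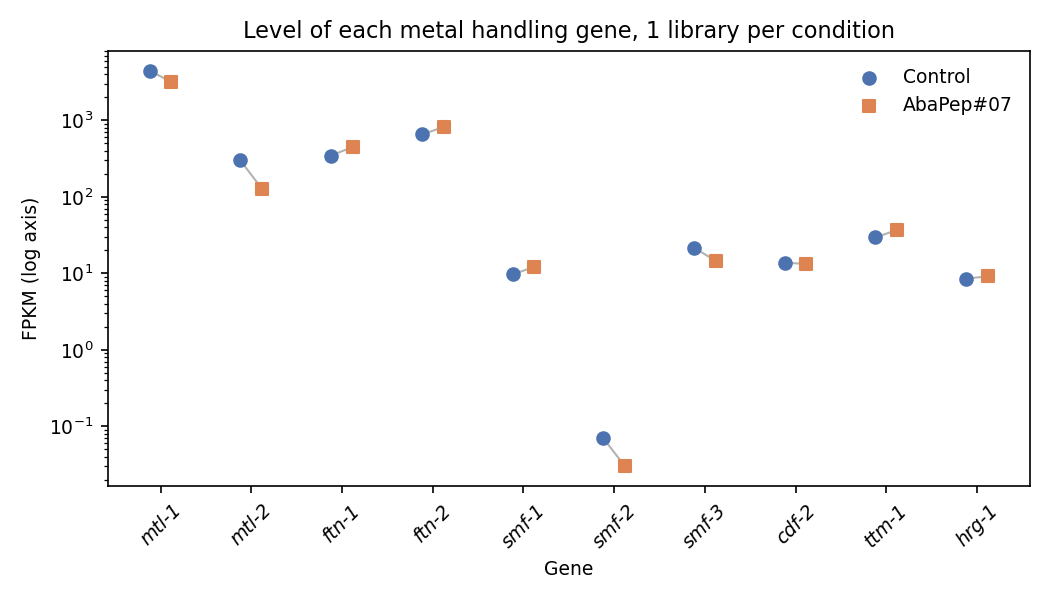
FPKM of the 10 genes (log axis) in the Control library (circles) and the AbaPep#07 library (squares), 1 library per condition and no error bars. The metallothionein and ferritin genes lie above 100 FPKM in both libraries, *smf-2* lies below 0.1, and the other genes lie between 8.52 and 37.1 FPKM.

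The metallothionein genes lie apart on chromosome V, both on the minus strand and with 2 exons, *mtl-1* from 6691371 to 6691863 and *mtl-2* from 14018270 to 14018673 (WBcel235). The gene *mtl-2*, known for expression in the intestine on exposure to metal, had 364 reads and 299.7 FPKM in Control and 167 reads and 126.6 FPKM with AbaPep#07. By reads the ratio was 0.463 (0.383 to 0.557), a 2.16-fold fall. The upper end of this interval lies above 0.5, so counting alone does not place the fall beyond 2-fold. Only 1.32% of the genes with at least 20 reads had a lower FPKM ratio.

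Its paralog *mtl-1* was far more abundant, with 8035 reads in Control and 6055 reads with AbaPep#07. Its FPKM went from 4495 to 3164, and its read ratio was 0.760 (0.735 to 0.786). The metallothionein genes were thus both lower, but not to the same degree. Per length, the level of *mtl-1* was 15 times that of *mtl-2* in Control and 25 times with AbaPep#07. These levels rest on short implied effective lengths. By reads alone *mtl-2* had 0.0453 times the reads of *mtl-1* in Control and 0.0276 times with AbaPep#07. The reads of *mtl-2* relative to those of *mtl-1*, a measure that does not depend on the library totals, were 0.609 times as high with AbaPep#07, with an exact 95% interval of 0.502 to 0.736. The summed reads of both genes went from 8399 to 6222, a ratio of 0.747 (0.723 to 0.772).

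The size of both differences depends on the unit, since these transcripts are short. The annotated transcript has 373 bases for *mtl-1* and 347 for *mtl-2*, and the effective lengths that the deposited reads and FPKM values imply are shorter still, as a fragment must fit within the transcript. For *mtl-2* the implied effective length was 62.6 bases in Control and 68.6 in the AbaPep#07 library, and for *mtl-1* it was 92.1 and 99.5. Over 9372 genes with at least 100 reads in each library, the effective length was longer with AbaPep#07 by a median of 10.2 bases. On long transcripts this hardly matters. The FPKM ratio lay below the read ratio by a median log2 difference of -0.01 for effective lengths of 1000 to 2000 bases, but of -0.13 for the 88 genes under 100 bases. Accordingly, the log2 ratio of *mtl-2* was -1.24 by FPKM and -1.11 by reads, and that of *mtl-1* was -0.51 and -0.40. Both directions and the call of *mtl-2* were kept in either unit, while the FPKM value of *mtl-1* lay outside the counting interval of its read ratio.

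**Figure D2:**
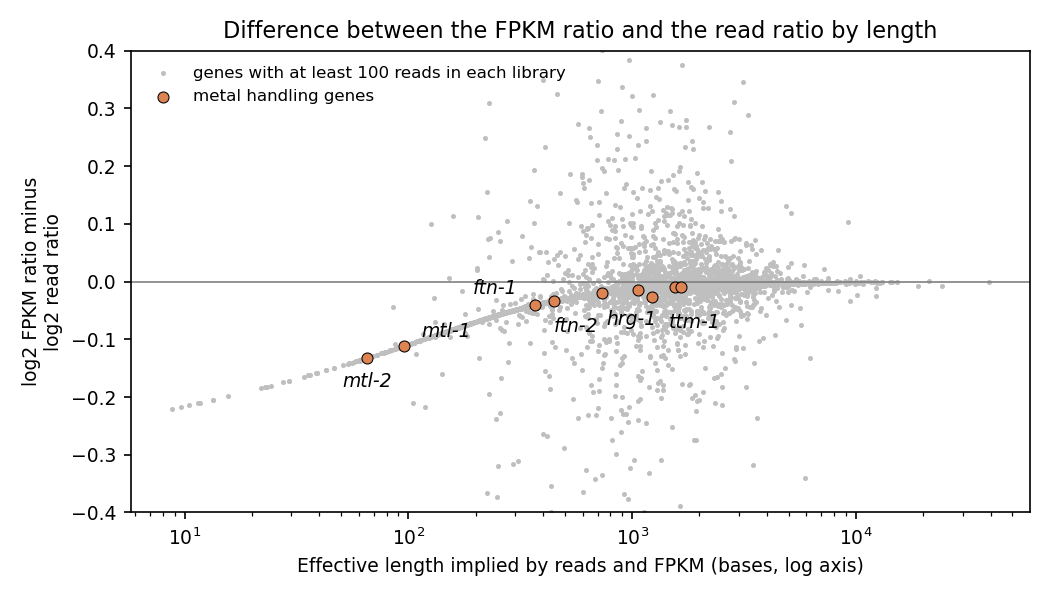
Difference between the log2 ratio of FPKM and the log2 ratio of reads (y axis) against the effective length implied by reads and FPKM (x axis, bases, log axis), for 9372 genes with at least 100 reads in each library (grey) and the 9 metal handling genes among them (orange). Short genes lie below 0, with *mtl-1* at -0.11 and *mtl-2* at -0.13, and 73 genes lie outside the y axis.

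The ferritin genes were higher with AbaPep#07, in contrast to the metallothionein genes. The intestinal ferritin gene *ftn-1* (chromosome V, 7546468 to 7547579, minus strand, 3 exons) had 2451 reads in Control and 3234 with AbaPep#07, at 348.2 and 450.7 FPKM. Its read ratio was 1.33 (1.26 to 1.40), and 16.3% of the genes with at least 20 reads had a higher FPKM ratio. Such shares, here and for other genes, take in genes with few reads, whose ratios spread more widely. Log2 FPKM ratios of at least 0.3 in either direction were found for 64.8% of genes with 20 to 100 reads. Among genes with 1000 to 10000 reads it was 17.6%. The more widely expressed *ftn-2* (chromosome I, 3680180 to 3680927, minus strand, 3 exons) had 5635 and 7149 reads, at 655.9 and 820.4 FPKM. The read ratio of *ftn-2* was 1.28 (1.24 to 1.33).

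The ferritin intervals overlap. The reads of *ftn-1* relative to *ftn-2* were 1.04 times as high with AbaPep#07, with an interval of 0.976 to 1.11 that holds 1. Per length, *ftn-2* was 1.88 times as abundant as *ftn-1* in Control and 1.82 times with AbaPep#07, and the relative level of these genes differed by less than counting error. Their summed reads went from 8086 to 10383, a ratio of 1.29 (1.26 to 1.33). Neither gene reached the fold threshold of 2, and the upper ends of both intervals lie well under it.

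As the metallothionein pool was lower and the ferritin pool higher, the reads of all 10 genes together changed little, from 18567 to 18720, a ratio of 1.02 (0.997 to 1.04). This was 0.0957% of all reads in Control and 0.0973% with AbaPep#07. The share of these reads that came from *mtl-1* went from 43.3% to 32.3%, and that of *ftn-2* from 30.3% to 38.2%. Summed in FPKM instead, the level went from 5882 to 4648, a ratio of 0.790, because *mtl-1*, with its short effective length, made up 76.4% of the Control sum.

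Among the divalent metal transporters the directions were mixed. The gene *smf-3* (chromosome IV, 2618869 to 2625503, plus strand), whose product takes up iron and manganese in the intestine, had 691 reads in Control and 463 with AbaPep#07. Its level went from 21.7 to 14.6 FPKM and its read ratio was 0.676 (0.60 to 0.761), which leaves out both 1 and 0.5. By FPKM 6.90% of the genes with at least 20 reads had a lower ratio. In contrast, *smf-1*, an apical transporter of the same family, had 292 and 366 reads, at 9.70 and 12.2 FPKM, and a read ratio of 1.26 (1.08 to 1.48).

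The interval of *smf-1* lies nearest to 1 among the 7 that leave it out. The reads of *smf-3* relative to *smf-1* were 0.535 times as high with AbaPep#07 (0.438 to 0.652), and per length *smf-3* went from 2.24 times to 1.2 times the level of *smf-1*. The third gene of the family, *smf-2*, had 2 reads in Control and 1 with AbaPep#07. Its ratio of 0.429 by FPKM is past 2-fold, as were the ratios of 7.83% of all genes in that direction, but the interval of its read ratio, 0.00855 to 9.69, says nothing on its direction. It lies next to *smf-1* on chromosome X, on the same strand with 973 bases between them (*smf-2* from 6716195 to 6718695 and *smf-1* from 6719669 to 6723066). It also shares 163 exonic bases with *nas-11* on the opposite strand, which had 910 and 1227 reads. The neighbouring *smf* genes thus differed widely in level.

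**Figure D3:**
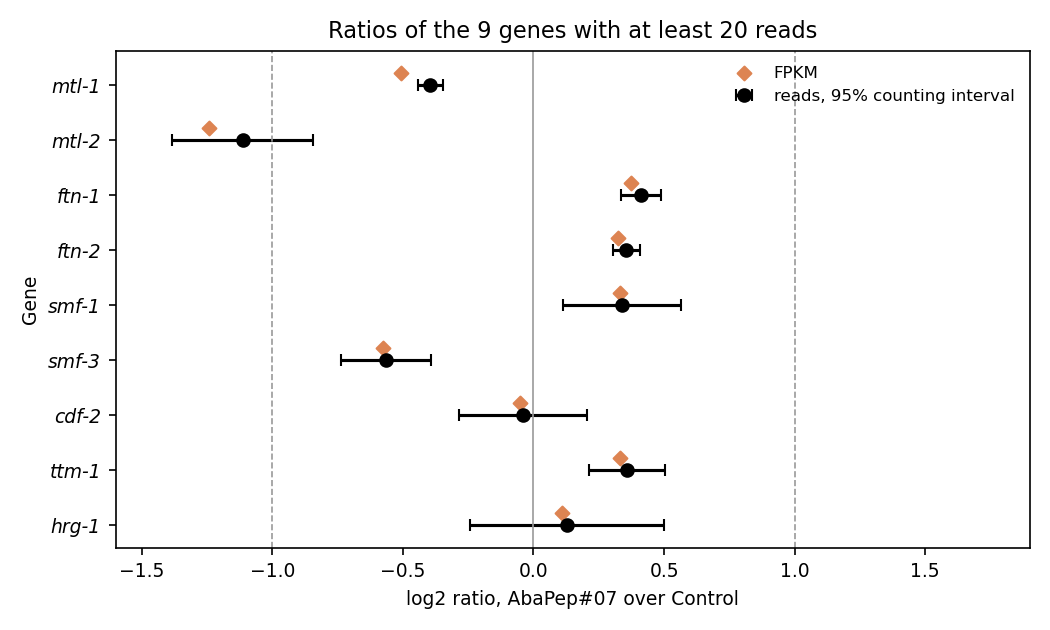
Log2 ratio of AbaPep#07 over Control for the 9 genes with at least 20 reads, by reads with the exact 95% counting interval (black) and by FPKM (orange), with dashed lines at a 2-fold difference. Only *mtl-2* lies past it, at -1.11 by reads and -1.24 by FPKM with an interval that crosses the line, and the intervals of *cdf-2* and *hrg-1* hold 0.

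The zinc transporter genes differed from each other. The gene *ttm-1* (chromosome III, 12952969 to 12966995, minus strand), 1 product of which exports zinc into the gut lumen, had 694 reads in Control and 882 with AbaPep#07, and went from 29.5 to 37.1 FPKM with a read ratio of 1.28 (1.16 to 1.42). It has 3 annotated transcripts, and the table gives the gene as a whole, so which transcript was higher was not measured. Its implied effective length was longer by 22.8 bases with AbaPep#07, more than the 10.2 bases that were typical. The gene *cdf-2* (chromosome X, 12464640 to 12466917, minus strand), whose product stores zinc in the gut granules, had 283 and 273 reads and 13.8 and 13.3 FPKM. Its read ratio of 0.973 has an interval of 0.821 to 1.15, and its log2 ratio was -0.05 by FPKM and 0.01 by TPM, so no direction can be given. Relative to *cdf-2*, the reads of *ttm-1* were 1.32 times as high with AbaPep#07 (1.08 to 1.61).

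The heme transporter gene *hrg-1* (chromosome X, 4008057 to 4016221, minus strand) encodes a protein that releases heme from lysosomes and endosomes into the cytosol. It had 120 reads in Control and 130 with AbaPep#07, at 8.52 and 9.18 FPKM. Its read ratio was 1.09 (0.846 to 1.41), an interval that holds 1 and also the ratios of both ferritin genes. The gene spans *mop-25.1* on the opposite strand over 4003 bases, yet their exons share 0 bases. The read counts of all 10 genes were whole numbers in both libraries. Whole counts do not show that no reads were divided with other genes.

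**Figure D4:**
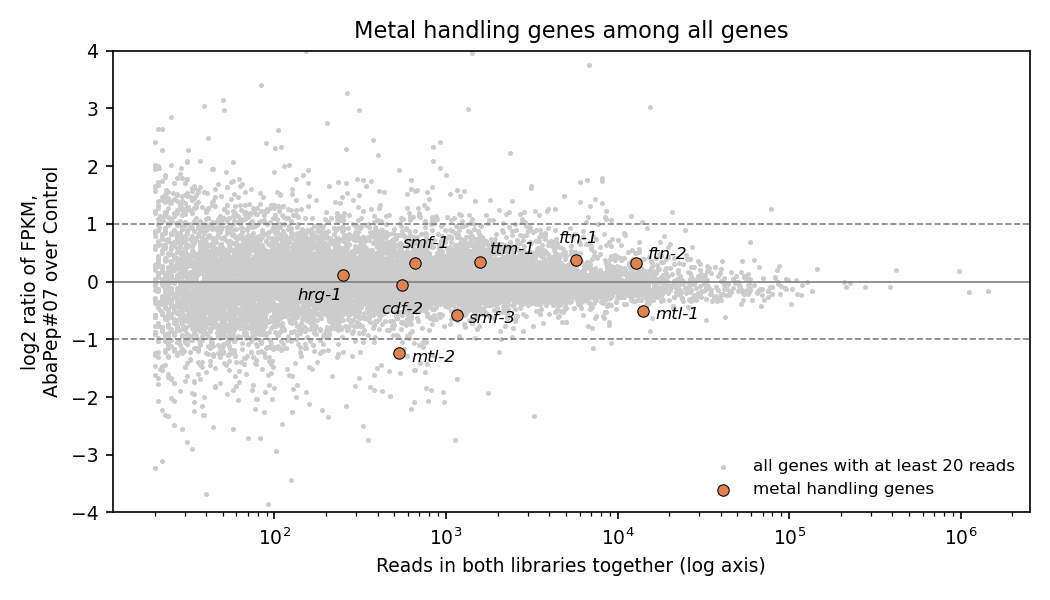
Log2 ratio of FPKM (y axis) against the reads of both libraries together (x axis, log axis) for the 14119 genes with at least 20 reads (grey) and the 9 metal handling genes among them (orange), with dashed lines at a 2-fold difference. Of the orange points only *mtl-2* lies outside these lines, and 19 genes lie outside the y axis.

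A wider list of 63 genes of metal handling, which holds the 10 genes above, was set beside them, and 61 of its genes were in the table. Of the 51 further genes none met the thresholds, where 3.53% of all genes did, so that *mtl-2* was the only such gene of the list. Among the 46 of them with at least 20 reads, counting intervals left out 1 for 11 genes on the higher side and 8 on the lower (10 and 8 of 45 when *numr-1* and *numr-2*, which have identical values, are counted once), against 20.6% of all such genes in each direction. Of the 46, 10 higher and 5 lower genes passed the FDR of 0.05, with both *numr* genes counted, against 2366 and 2263 of the 14119. The median log2 ratio of the 51 genes was 0.04. The largest ratios stood in the heme and cadmium groups.

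Of the further genes with at least 100 reads, *hrg-7* had the largest ratio. The gene, whose product signals heme status between intestine and neurons, had 234 reads in Control and 429 with AbaPep#07. It went from 10.8 to 19.7 FPKM, a ratio of 1.83 that falls short of the fold threshold, and its read interval was 1.57 to 2.18. The heme exporter gene *mrp-5* had 4778 and 5611 reads, with a read ratio of 1.18 (1.14 to 1.23). Of the 9 heme genes, these were the ones whose intervals left out 1. In sum the reads of the 9 genes went from 5216 to 6275, a ratio of 1.21 (1.17 to 1.26), and most of these reads came from *mrp-5*. Reads were few for *hrg-2* (3 and 11), *hrg-3* (5 and 6) and *hrg-5* (6 and 2).

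In the cadmium response group, *numr-1* and *numr-2*, which encode nuclear proteins responsive to metals, each had 611 reads in Control and 1000.5 with AbaPep#07, a read ratio of 1.65 (1.49 to 1.83). Their values are identical and their AbaPep#07 count is not whole, as when reads are divided between genes. The level of each gene is thus uncertain, and the pair counts as 1 measurement. The glutathione transferase-like genes *cdr-2* and *cdr-6* had read ratios of 1.3 (1.1 to 1.54) and 1.21 (1.06 to 1.38). These 4 were the genes of the group, of 10 analysed, whose intervals left out 1. For the other 6 the intervals held 1. Phytochelatin synthase (*pcs-1*), which makes a metal-binding peptide, had 394 reads in both libraries. The gene *cdr-3* had 2 reads in Control and 0 with AbaPep#07.

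Zinc transporters of the ZIP family, which carry zinc into the cytosol, were close to level. Of 14 genes, 2 were higher and 5 lower by their counting intervals, and the median log2 ratio was -0.12. The higher genes were *zipt-2.1*, at 585 and 767 reads and a read ratio of 1.32 (1.19 to 1.48), and *zipt-7.2*, at a read ratio of 1.15. The lower genes were *zipt-1*, *zipt-2.4*, *zipt-7.1*, *zipt-13* and *zipt-15*, with read ratios from 0.822 to 0.904, and the reads of *zipt-13* were not whole numbers. Among the other CDF genes, *toc-1* had a read ratio of 0.853 (0.781 to 0.932), while those of *cdf-1* and *sur-7* had intervals that hold 1.

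Genes of iron export, mitochondrial iron and iron sensing differed little. The aconitase gene *aco-1*, homologous to the iron regulatory proteins of mammals, had 4297 and 4457 reads, with a read ratio of 1.05 (1.003 to 1.09). Its FDR in the PossionDis test was 0.111, above the threshold. No interval left out 1 for *fpn-1.1*, *fpn-1.2*, *mfn-1* and *frh-1*. The copper genes gave 1 such interval of 4, that of *cutc-1*, with a read ratio of 0.874 (0.794 to 0.962). The copper pump gene *cua-1* had 2009 and 2010 reads.

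**Figure D5:**
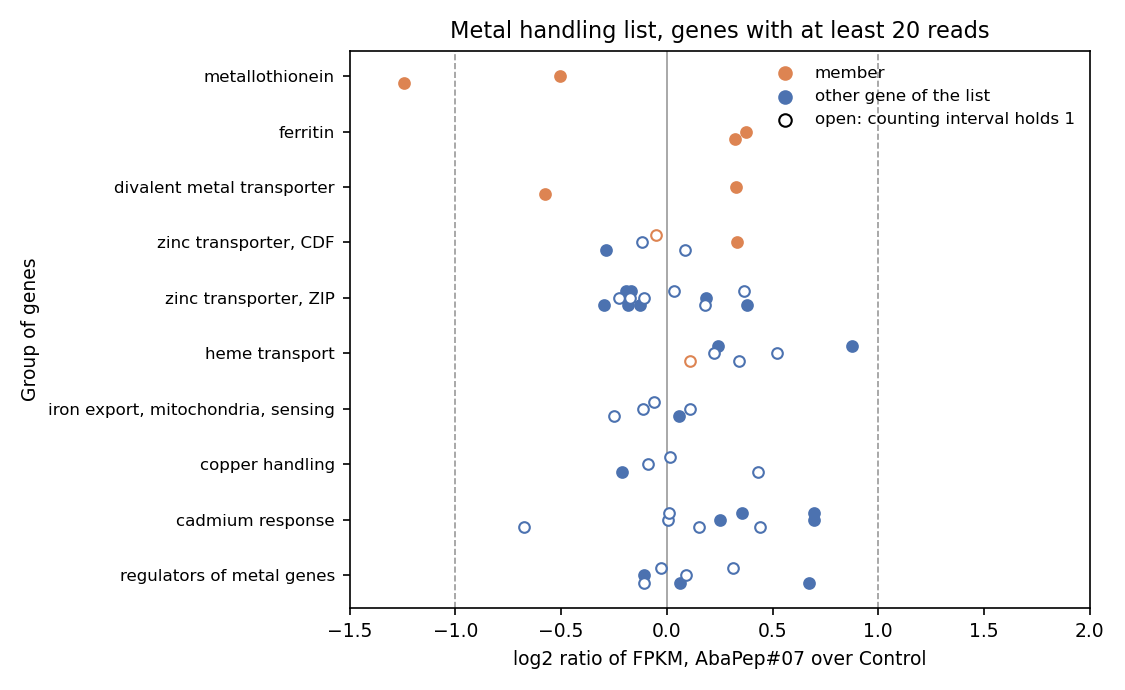
Log2 ratio of FPKM of the genes of the metal handling list with at least 20 reads, by group, with genes of the 10-gene set in orange and other genes in blue. Open circles mark genes whose 95% counting interval of the read ratio holds 1, and dashed lines a 2-fold difference, past which only *mtl-2* lies.

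Among regulators of metal genes, the intestinal GATA factor gene *elt-2*, which is known to drive both metallothionein genes, was higher with AbaPep#07. It had 251 and 400 reads, at 10.2 and 16.3 FPKM, and a read ratio of 1.61 (1.37 to 1.89), the opposite direction to *mtl-1* and *mtl-2*. The same measurement of *elt-2* is among the higher intestine markers counted above, and its part in the metallothionein levels was not tested. The gene *hif-1*, whose product responds to oxygen and iron and acts on ferritin and *smf-3* transcription, had 6209 and 6075 reads and a read ratio of 0.987 (0.953 to 1.02). For *egl-9* and *vhl-1*, which control the stability of HIF-1, and for the zinc sensor gene *hizr-1*, the intervals held 1. The ratios of *skn-1* and *daf-16*, which encode stress-responsive transcription factors, were 1.07 (1.03 to 1.11) and 0.938 (0.900 to 0.977). These are levels of RNA, and the activity of the factors was not measured in these libraries.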

How the data were processed

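RNA-seq of 1 Control and 1 AbaPep#07 library of whole nematodes was analysed, with groups taken from the labels. The authors aligned reads to the coding gene set of WBcel235 with Bowtie2 (2.2.5) and deposited estimated counts per gene from RSEM (1.2.12), without normalization (versions from the submitters' processing notes). Whether the library kit kept strand is not given in the sources used here. The authors also deposited FPKM and TPM values, rounded to 2 decimals. Their log2 ratios, p-values and FDR were not used.

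The PossionDis test was recomputed from counts rounded down, with Benjamini-Hochberg adjustment over 18510 genes, and the FPKM ratio used 0.01 in place of 0. Counts were rounded to the nearest whole read for intervals, and for scaling and exact tests in edgeR (4.0.16) and DESeq2 (1.42.0). A quasi-likelihood test could not be fitted without replicates. The procedures were tested on simulated data. Python 3.11.15 and scipy 1.17.1 were used.

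The 10 genes and all lists were chosen with earlier results of these data known. Text names all 10 genes, list genes with at least 100 reads whose interval leaves out 1, and regulators. Other genes and the gene pairs were chosen after their values were seen. Of 63 list genes, 59 matched by symbol and 2 (*hrg-9* and *chca-1*) by gene ID, and 2 (*fpn-1.3* and *cdr-5*) were not analysed. Positions are from the Ensembl annotation of WBcel235.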

Additional observations from a re-analysis of the deposited data

How the results depend on the processing

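The call of *mtl-2*, the only one among the 10 genes and in the wider list, was kept with reads scaled by library totals, TPM, TMM and DESeq2 scaling, 1 FPKM added, a minimum of 20 reads, an exact binomial test and Bonferroni adjustment. These tests hold sampling error only. In the exact test of edgeR, where a coefficient of variation between cultures has to be assumed, the call was kept with 0.1, whereas with 0.2 and with 0.4 the count of called genes was 0, both among the 10 genes and in the list. The FDR of *mtl-2* in that test was 0.000596, 0.706 and 1, and 653 calls over all genes became 361, 85 and 7. The median log2 ratio of the 10 genes lay between 0.02 and 0.09, and it was 0.11 over the 9 genes with at least 20 reads. For single genes, 45 of 50 values under another scaling or with 1 FPKM added moved by less than counting error. The exceptions were *mtl-1*, at -0.45 by TPM and -0.38 to -0.40 by reads under each scaling, and *ftn-2*, at 0.38 by TPM. A sign changed once, for *cdf-2* by TPM (0.01). TPM raised the log2 ratio of genes by a median of 0.06. Over all genes, 1 FPKM added left 318 calls and Bonferroni adjustment 268. No paired analysis was possible because each condition has 1 library, and for the same reason no replicate could be left out.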
